A study of Mus musculus with 27 samples.

Results

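The wild-derived inbred strains CAST/EiJ, PWK/PhJ and WSB/EiJ were compared with the classical laboratory strains 129S1/SvImJ, NZO/HlLtJ, NOD/ShiLtJ, DBA/2J, A/J and C57BL/6J by sequencing polyadenylated RNA from hepatocytes, the parenchymal cells of the liver. The wild-derived strains were taken by the strain name in the labels and gave 9 of the 27 libraries, 3 from each strain. The 6 classical strains gave the other 18 libraries, also 3 each. Every mouse was female and 12 weeks old per the labels, and no treatment, transgene or induced mutation is named for any group. The labels number the libraries of a strain as biological replicates without saying more about their source. The wider study also measured histone modifications and DNA methylation in the strains. The strain was the unit of comparison here, so that 3 strain values were set against 6 and each strain had the same weight.

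Wild-derived strains were bred from mice trapped recently in the wild, and the classical strains descend largely from fancy mice of mixed ancestry. CAST/EiJ stands for the subspecies Mus musculus castaneus, PWK/PhJ for Mus musculus musculus and WSB/EiJ for Mus musculus domesticus, the subspecies that contributed most to the classical genomes. The 3 strains therefore do not share a common origin apart from the classical ones. Hepatocytes secrete most plasma proteins, make cholesterol and bile acids, and convert drugs and steroids with cytochrome P450 enzymes and conjugating enzymes. Genes of these functions are named below together with the genes that set the wild-derived strains apart.

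Library totals ran from 17015932 to 31671322 estimated counts in the wild-derived libraries and from 23757469 to 35078483 in the classical ones. At this depth a single count was worth between 0.0254 and 0.0517 CPM, the unit of level used here, which is the count scaled to the library size adjusted by the trimmed mean of M-values (TMM). Levels in CPM are not corrected for gene length and are compared between strains only. Where values of the 3 wild-derived strains follow each other, CAST/EiJ comes first, then PWK/PhJ and then WSB/EiJ. Defining hepatocyte markers such as Alb and Apoa1 together took between 129200 and 269900 CPM in the wild-derived libraries and between 133100 and 370900 CPM in the classical ones. Markers of other liver cells were present in both groups at much lower sums. The 10 endothelial markers summed to between 59 and 731.6 CPM in wild-derived and between 58.5 and 285.9 CPM in classical libraries, and the 10 Kupffer cell (liver macrophage) markers to between 59.59 and 440.8 CPM and between 35.11 and 291.2 CPM. In bulk RNA, fewer cells of a type and less RNA per cell cannot be told apart. Whether the authors used a single reference or strain-specific genomes is not given in the sources used here. How far sequence differences from the reference moved the counts of the wild-derived strains was not tested.

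The first comparison asked which genes differed between the wild-derived and the classical strains when the spread between strains is the error. Of 14967 genes tested, 14 were higher (0.0935%) and 5 were lower (0.0334%) in the wild-derived strains at a Benjamini-Hochberg adjusted p under 0.05 in edgeR's quasi-likelihood test on strain sums. The number depended on the tool: DESeq2 on the same sums called 174 higher and 202 lower, and limma on strain means of log2 CPM called 10 and 10. At an unadjusted p under 0.05 the edgeR test gave 825 higher genes (5.51%) and 747 lower genes (4.99%). The numbers called in edgeR also depended on the strains included. Without WSB/EiJ, 102 genes were called higher and 94 lower, and without PWK/PhJ the numbers were 44 and 11. Without CAST/EiJ they were 8 and 4. Leaving out a classical strain gave 4 higher and 4 lower without C57BL/6J, 4 and 3 without 129S1/SvImJ, 6 and 2 without A/J, 3 and 2 without DBA/2J, 6 and 4 without NOD/ShiLtJ, and 5 and 4 without NZO/HlLtJ. The calls of Ces2h, Gm3272, Gm20425 and Dclk3 were kept in all 9 of these fits.

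A count that needs no test gave what all 3 wild-derived strains share in every library. In 24 genes (0.16% of those tested) all 9 wild-derived libraries lay above all 18 classical libraries, and in 34 genes (0.227%) they all lay below, with a mean of at least 1 CPM in the higher group. These 58 genes were 0.388% of those tested. Each wild-derived strain on its own stood apart from the 18 classical libraries in many more genes. CAST/EiJ lay above them in 936 genes and below in 836, PWK/PhJ above in 596 and below in 581, and WSB/EiJ above in 354 and below in 267. CAST/EiJ and PWK/PhJ together stood above in 131 genes and below in 190, CAST/EiJ and WSB/EiJ in 69 and 79, and PWK/PhJ and WSB/EiJ in 53 and 62. Most of the genes that set a wild-derived strain apart from the classical strains were thus not shared by the other two. Of the 24 higher genes 22 were annotated as protein coding and 9 were called, and of the 34 lower genes 32 were protein coding and 4 were called. Strain means alone separated in 266 genes upward (1.78%) and 373 downward (2.49%), and in 208 and 290 of these the higher group averaged at least 1 CPM.

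**Figure D1:**
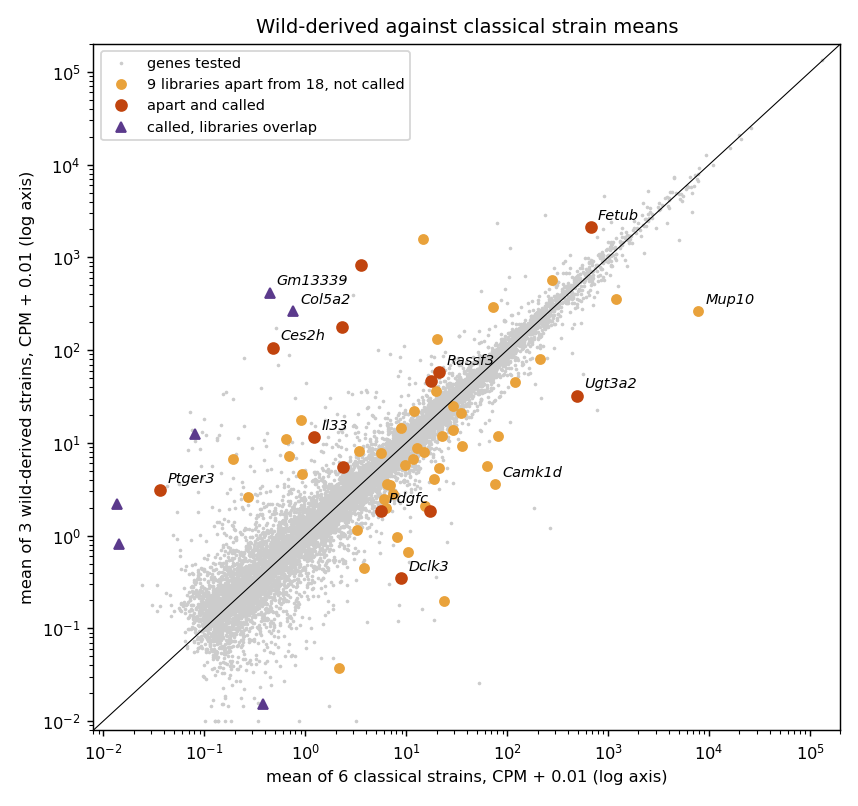
Mean of the 3 wild-derived strains against the mean of the 6 classical strains for each of the 14967 genes tested, in CPM + 0.01 on log axes, with the diagonal as the line of equal levels. Red circles are called genes whose 9 wild-derived libraries lay apart from all 18 classical ones, orange circles are genes that lay apart without a call, and purple triangles are called genes whose libraries overlapped, such as Col5a2. Ces2h lies far above the diagonal and Dclk3 and Camk1d far below it.

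Ces2h had the smallest p of all genes tested and was nearly restricted to the wild-derived strains. It encodes a member of the carboxylesterase 2 family, enzymes that hydrolyse ester bonds in drugs and lipids. Its level was 54.2 ± 5.07, 112.5 ± 37.1 and 152.9 ± 7.23 CPM in CAST/EiJ, PWK/PhJ and WSB/EiJ (n = 3 each, SD). The classical libraries ran from 0.137 CPM through a median of 0.448 CPM to 0.902 CPM. The lowest wild-derived library, at 48.4 CPM, was far above the highest classical one. The mean was 225-fold higher (log2 fold change 7.83 ± 0.40, SE, edgeR adjusted p 7.49e-05). The gene (ENSMUSG00000091813) lies on the plus strand at chr8:105000853-105021178 of GRCm38, and its estimated counts were whole in every library.

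The sequence upstream of Ces2h is shown because its transcript separated the groups most. RefSeq (GRCm38.p6) gives these 250 bases before its start, at chr8:105000580-105000829 on the plus strand, with a CCAAT box in capitals that begins 50 bases upstream.
Ces2h: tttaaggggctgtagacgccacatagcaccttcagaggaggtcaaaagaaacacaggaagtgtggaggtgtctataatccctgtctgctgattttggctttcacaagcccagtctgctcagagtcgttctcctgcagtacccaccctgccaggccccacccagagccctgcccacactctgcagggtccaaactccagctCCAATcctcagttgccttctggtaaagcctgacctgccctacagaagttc
The letters are those of the reference, which is a C57BL/6J genome, and the alleles of the wild-derived strains are not analysed here. The motifs searched on both strands were the TATA box TATAAA, the CCAAT box, the GC box GGGCGG, the HNF1 motif GTTAAT and the HNF4A motif CAAAGTCCA; in the windows shown no match overlapped another. Among 32851 RefSeq entries cut to the same length, 12.4% held the TATA box, 33.8% the CCAAT box, 32.7% the GC box, 6.43% the HNF1 motif and 0.384% the HNF4A motif. A match describes the letters only.

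Fetub rose by nearly the same amount in all 3 wild-derived strains. It encodes fetuin-B, a plasma protein secreted by the liver that inhibits the egg protease ovastacin and is needed for female fertility in mice. The means were 2128 ± 437, 2162 ± 756 and 2108 ± 673 CPM in CAST/EiJ, PWK/PhJ and WSB/EiJ (n = 3 each, SD). The classical libraries ran from 473 CPM through 651 CPM to 994 CPM. The 3 wild-derived means thus differed by less than the spread between libraries of a strain, and the lowest wild-derived library, at 1370 CPM, was above every classical one. The mean was 3.17-fold higher (log2 fold change 1.66 ± 0.20, SE, edgeR adjusted p 0.0292). RefSeq (GRCm38.p6) lists separate starts for Fetub on the plus strand of chromosome 16. The windows of 250 bases before them lie at chr16:22918132-22918381, where a TATA box begins 31 bases, a GC box 186 bases and a reversed CCAAT box 218 bases upstream, and at chr16:22919972-22920221, where a GC box begins 96 bases upstream. Both are shown, with these motifs in capitals, because Fetub had the highest mean CPM of the genes called, a value not corrected for gene length.
Fetub, upstream start: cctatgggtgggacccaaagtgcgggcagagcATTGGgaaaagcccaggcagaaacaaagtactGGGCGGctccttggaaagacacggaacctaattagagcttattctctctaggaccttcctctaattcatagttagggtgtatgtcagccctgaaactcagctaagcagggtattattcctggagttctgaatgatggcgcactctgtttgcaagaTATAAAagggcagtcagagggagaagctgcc
Fetub, downstream start: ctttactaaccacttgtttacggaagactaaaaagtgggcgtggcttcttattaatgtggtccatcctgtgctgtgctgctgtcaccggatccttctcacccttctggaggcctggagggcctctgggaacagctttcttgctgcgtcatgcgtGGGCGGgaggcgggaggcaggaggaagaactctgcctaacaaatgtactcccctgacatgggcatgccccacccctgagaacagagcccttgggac
The deposited table has a single value per gene, so the share of each start in the level of Fetub is not analysed here.

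Signalling genes were among the genes called higher. Il33, a cytokine of the interleukin-1 family that is released by damaged cells, had 14.3 ± 8.50, 15.1 ± 4.33 and 5.22 ± 1.24 CPM in CAST/EiJ, PWK/PhJ and WSB/EiJ (n = 3 each, SD). The classical libraries ran from 0.582 CPM through 1.04 CPM to 2.51 CPM, and the lowest wild-derived library had 3.87 CPM. Il33 was 9.43-fold higher by mean CPM (log2 fold change 3.17 ± 0.43, SE, edgeR adjusted p 0.0292). Hepatic stellate and endothelial cells also express Il33. The endothelial marker sum averaged 122.2, 409.1 and 144.4 CPM in CAST/EiJ, PWK/PhJ and WSB/EiJ, against 79.58 to 217.9 CPM in the classical strains, and the stellate cell sum 61.29, 157 and 93.53 CPM against 41.54 to 106.9 CPM. Both sums lay inside the classical range in CAST/EiJ and WSB/EiJ and above it in PWK/PhJ, and their part in the Il33 difference was not tested.

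Ptger3 was the single gene with at most 3 counts in every classical library and a mean of 1 CPM or more in each wild-derived strain (1 of 14967 genes, 0.00668%). It encodes EP3, a receptor for prostaglandin E2. Its level was 5.32 ± 0.431, 1.97 ± 0.363 and 2.01 ± 0.581 CPM in CAST/EiJ, PWK/PhJ and WSB/EiJ (n = 3 each, SD), while no classical library had more than 3 counts. Set against 3 counts per classical library, the mean was at least 28.6-fold higher (edgeR adjusted p 0.0292); this floor covers counting error only. No gene was near 0 in every wild-derived library and at 1 CPM or more in each classical strain.

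Rassf3, a member of the Ras association domain family, was 2.73-fold higher by mean CPM (log2 fold change 1.46 ± 0.19, SE, edgeR adjusted p 0.0292). It had 69.5 ± 6.93, 44.4 ± 12.2 and 59.2 ± 25.7 CPM in CAST/EiJ, PWK/PhJ and WSB/EiJ (n = 3 each, SD), against 14.8, 20.1 and 32.5 CPM as the lowest, median and highest classical library. The lowest wild-derived library, at 34.6 CPM, was just above that range.

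Other calls, all but Col5a2 outside the rule for named genes and chosen after their values were seen, included genes at unlike levels in the 3 strains. Col5a2, a chain of fibrillar type V collagen, had 1.81 ± 0.699 CPM in CAST/EiJ but 241 ± 54.3 and 552 ± 286 CPM in PWK/PhJ and WSB/EiJ (n = 3 each, SD). Classical libraries held 0.379 to 1.59 CPM of Col5a2 and overlapped those of CAST/EiJ, although the log2 fold change was 8.49 ± 1.19 (SE, edgeR adjusted p 0.0352). Under limma on strain means of log2 CPM the adjusted p of Col5a2 was 0.167. The ferritin light chain copy Ftl1-ps1 had 1777, 12.8 and 675 CPM in CAST/EiJ, PWK/PhJ and WSB/EiJ against 1.92 to 4.99 CPM in the classical libraries. The pseudogene Gm13339 had 0.433 CPM in WSB/EiJ, inside its classical range of 0.251 to 0.888 CPM. The pseudogenes Rps26-ps1 and Gm6568 were near the classical range in PWK/PhJ. The pseudogene Gm3272 was high in all 3, at 182, 136 and 214 CPM, against 0.314 to 7.40 CPM in the classical libraries. The reproductive homeobox gene Rhox8 reached 0.489, 0.269 and 1.65 CPM, with at most 1 count in a classical library. Estimated counts of Gm13339, Ftl1-ps1, Gm3272, the zinc finger gene Zfp976 and Gm20425, a gene model that overlaps Trf and Srprb, were not whole in any of the 27 libraries. Such counts arise when reads are shared out between similar or overlapping sequences, so these levels are uncertain.

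The 5 genes called lower were all outside the rule for named genes and are described because they are so few; they were chosen after their values were seen. Dclk3, a doublecortin-like kinase (ENSMUSG00000032500, plus strand, chr9:111439081-111489118), was close to absent in the wild-derived strains. It had 0.11 ± 0.104, 0.391 ± 0.284 and 0.513 ± 0.0802 CPM in CAST/EiJ, PWK/PhJ and WSB/EiJ (n = 3 each, SD). The classical libraries ran from 4.51 CPM through 8.40 CPM to 12.8 CPM, and no wild-derived library was above 0.687 CPM. Its mean was 26.3-fold lower (log2 fold change -4.69 ± 0.42, SE, edgeR adjusted p 0.00639). Ugt3a2, a UDP-glycosyltransferase that conjugates lipophilic compounds, had 26.5 ± 2.21, 15.3 ± 1.09 and 55.3 ± 5.15 CPM in CAST/EiJ, PWK/PhJ and WSB/EiJ (n = 3 each, SD). Its classical libraries held 352 to 716 CPM with a median of 434 CPM, a 15.3-fold difference in means (log2 fold change -3.92 ± 0.46, SE, edgeR adjusted p 0.0254). Without CAST/EiJ or without DBA/2J the edgeR adjusted p of Ugt3a2 was no longer under 0.05 and reached 0.0769. Its counts were not whole in 25 libraries.

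Pdgfc, which encodes a growth factor ligand of the platelet-derived growth factor family, was the called gene with the most even decrease. Its level was 1.90 ± 0.235, 2.04 ± 0.346 and 1.61 ± 0.442 CPM in CAST/EiJ, PWK/PhJ and WSB/EiJ (n = 3 each, SD). The classical libraries ran from 3.98 CPM through 5.41 CPM to 9.32 CPM, and the highest wild-derived library had 2.31 CPM. The mean was 3.05-fold lower (log2 fold change -1.60 ± 0.22, SE, edgeR adjusted p 0.0292). The 250 bases before its RefSeq start (GRCm38.p6, plus strand, chr3:81036166-81036415) are shown as the counterpart of Fetub, a gene of like fold in the other direction. They hold none of the motifs searched.
Pdgfc: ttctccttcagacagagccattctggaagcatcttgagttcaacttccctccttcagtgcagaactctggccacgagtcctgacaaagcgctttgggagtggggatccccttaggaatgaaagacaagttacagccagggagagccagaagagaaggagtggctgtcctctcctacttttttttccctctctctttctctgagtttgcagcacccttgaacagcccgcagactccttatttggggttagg
Gm2788 and Chn1os3 completed the genes called lower. Gm2788 overlaps E2f8, a repressor of cell cycle genes, and both had all wild-derived libraries below all classical ones, at 1.85 against 17.4 CPM for the mean of Gm2788 and 1.96 against 6.36 CPM for E2f8. E2f8 itself was not called (edgeR adjusted p 0.089), and reads of such overlapping genes cannot be told apart where strand is not recorded. Chn1os3 is antisense to Chn1 and had at most 1 count in a wild-derived library. Its classical libraries ran from 0 to 0.926 CPM, with a mean of 0.371 CPM over the strains, and overlapped the wild-derived ones. With 3 counts per library as the floor Chn1os3 was at least 3.2-fold lower (edgeR adjusted p 0.0292).

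**Figure D2:**
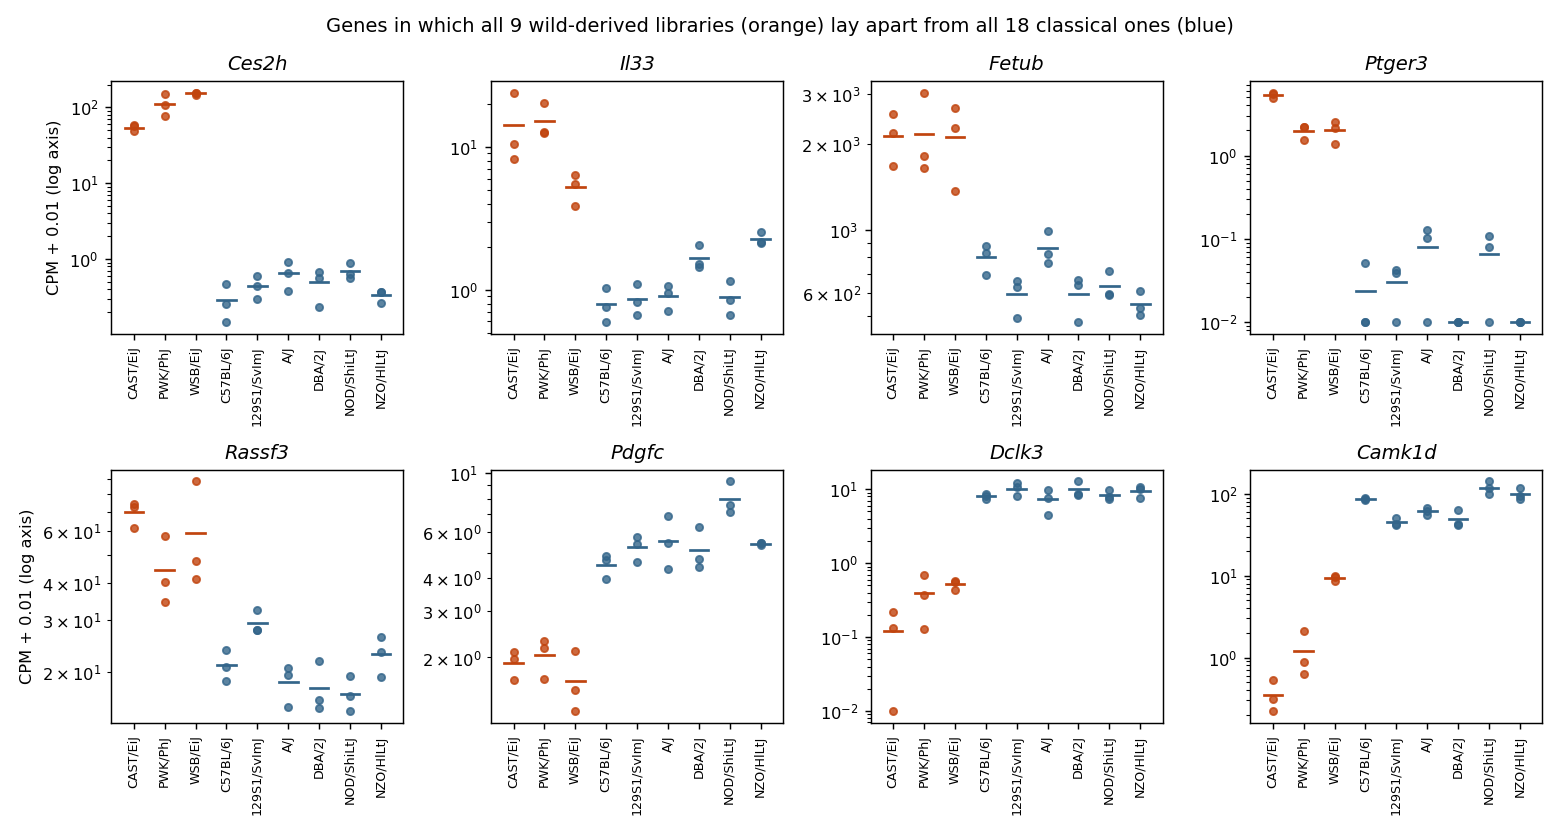
CPM + 0.01 of 8 genes in each library on log axes, with orange points for the 9 wild-derived and blue points for the 18 classical libraries and a line at each strain mean. In each panel the wild-derived points lie apart from all classical ones, above in Ces2h, Il33, Fetub, Ptger3 and Rassf3 and below in Pdgfc, Dclk3 and Camk1d.

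The calls of several of these genes depended on which strain was left out, while those of Ces2h and Dclk3 were kept in all 9 fits. Leaving out single strains ended the call of Fetub in 6 of 9 fits, with edgeR adjusted p up to 0.089, that of Il33 in 7, with adjusted p up to 0.096, and that of Ptger3 in 6, with adjusted p up to 0.0818. Rassf3 and Pdgfc each lost the call in 6 fits as well, with edgeR adjusted p up to 0.103 and 0.0973. The log2 fold change of Fetub stayed between 1.60 and 1.74 over these fits and that of Il33 between 2.86 and 3.50.

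A further 7 genes named by the rule had all wild-derived libraries above all classical ones without a call. Serpine2, a secreted inhibitor of thrombin and urokinase, had 18.5 ± 2.03, 25.8 ± 0.634 and 8.22 ± 0.673 CPM in CAST/EiJ, PWK/PhJ and WSB/EiJ (n = 3 each, SD). Classical libraries of Serpine2 ran from 0.0256 to 4.10 CPM with a median of 0.395 CPM (log2 difference 4.31 ± 0.82, SE, edgeR adjusted p 0.129). Genes of amino acid and phospholipid metabolism were in this group. Etnppl, which breaks down phosphoethanolamine, had 219 ± 17.2, 385 ± 56.7 and 264 ± 63.4 CPM in CAST/EiJ, PWK/PhJ and WSB/EiJ, against 21.5 to 149 CPM in the classical libraries (log2 difference 1.99, edgeR adjusted p 0.121). Aass, which catalyses the first steps of lysine breakdown, had 581, 481 and 650 CPM against 207 to 398 CPM (log2 difference 1.03, edgeR adjusted p 0.101). Pcsk5, a proprotein convertase, stood out for its evenness. Its means were 36.1 ± 4.11, 35.6 ± 6.53 and 35.8 ± 4.53 CPM in the 3 wild-derived strains (n = 3 each, SD), while the classical libraries ran from 10.8 to 27.5 CPM. The remaining genes were Mmd2, a membrane protein of the progestin and adipoQ receptor family, at 63.4, 220 and 115 CPM against 2.51 to 36.7 CPM, the atypical protein kinase C gene Prkcz, at 30.0, 15.9 and 19.8 CPM against 7.22 to 14.6 CPM, and Nqo1, a quinone reductase, at 12.0, 16.6 and 14.4 CPM against 5.29 to 11.1 CPM.

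The 12 lower genes of the rule were likewise separated without a call, with edgeR adjusted p from 0.0677 for Frmd8 to 0.431 for Gstt1. Camk1d, a calcium- and calmodulin-dependent kinase, had 0.342 ± 0.157, 1.18 ± 0.777 and 9.30 ± 0.666 CPM in CAST/EiJ, PWK/PhJ and WSB/EiJ (n = 3 each, SD). The classical libraries held 41.8 to 142 CPM, so that every wild-derived library was below all of them, but the wild-derived strains differed widely among themselves (log2 difference -4.42 ± 1.02, SE, edgeR adjusted p 0.162). Smo, the transducer of Hedgehog signals, had 2.98, 0.327 and 2.99 CPM against 4.72 to 25.6 CPM in the classical libraries (log2 difference -2.86, edgeR adjusted p 0.165). The zinc transporter Slc39a5 had 0.551, 0.404 and 1.02 CPM against 1.60 to 37.3 CPM. Metabolic enzymes formed part of these genes. Car3, a carbonic anhydrase abundant in liver and fat, had 115 ± 45.3, 417 ± 51.4 and 525 ± 165 CPM against 732 to 1984 CPM, and the glutathione transferase Gstt1 had 13.2 ± 2.44, 141 ± 6.57 and 84.6 ± 7.02 CPM against 176 to 264 CPM. Vnn3, of the vanin family of pantetheinases, had 19.6, 10.3 and 5.45 CPM against 25.9 to 140 CPM. The stress-responsive gene Ndrg1 and the hyaluronan-binding matrix protein gene Itih5 had log2 differences of -1.96 and -2.15. The calpain gene Capn10, the guanine nucleotide exchange factor gene Arhgef5 and Frmd8 had smaller ones, of -0.93, -0.89 and -0.82.

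The second comparison asked how alike the wild-derived strains were. Across genes, which are not independent replicates, Pearson's r of strain mean log2 CPM averaged 0.92 among the 3 wild-derived strains, 0.9588 among the 6 classical strains and 0.9315 between the groups. CAST/EiJ and PWK/PhJ had an r of 0.9106, CAST/EiJ and WSB/EiJ 0.9305, and PWK/PhJ and WSB/EiJ 0.9189. On average, the wild-derived strains were therefore not more alike among themselves than they were like classical strains. CAST/EiJ was nearer to WSB/EiJ than to the classical strains on average (mean r 0.9227), although its r with 129S1/SvImJ was higher, at 0.9335. The mean r within groups exceeded that between groups by 0.0209, with an exact two-sided permutation p of 0.0119, the smallest that the 84 ways of choosing 3 of 9 strains can give, and this excess came from the classical pairs. WSB/EiJ was the wild-derived strain nearest to the classical ones, with a mean r of 0.9498 against 0.9227 for CAST/EiJ and 0.9219 for PWK/PhJ. Its r with each classical strain was at least 0.9414, above its r with either other wild-derived strain.

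**Figure D3:**
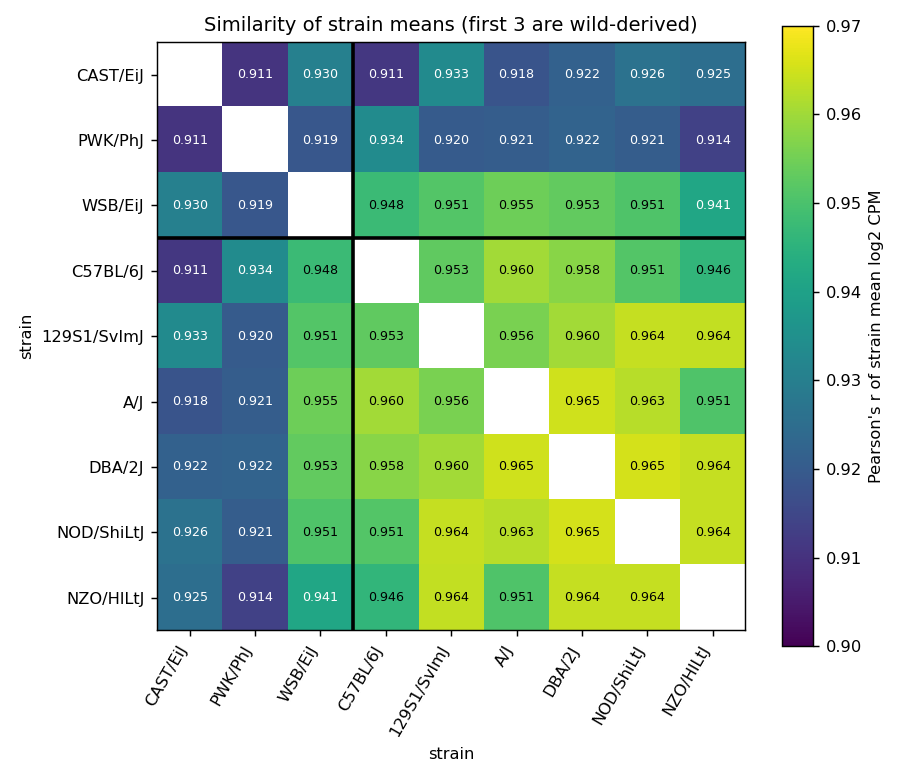
Pearson's r of strain mean log2 CPM over 14967 genes for each pair of strains, with the 3 wild-derived strains first and black lines between the groups. The classical block runs from 0.946 to 0.9654, while the 3 wild-derived pairs lie between 0.9106 and 0.9305.

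By differences in level, too, the wild-derived pairs were on average farthest apart, and WSB/EiJ was the wild-derived strain nearest to the classical ones. The mean absolute log2 difference between strains was 0.757 for wild-derived pairs, 0.541 for classical pairs, which ran from 0.467 to 0.682, and 0.688 between the groups. WSB/EiJ differed from the classical strains by 0.594 on average, CAST/EiJ by 0.736 and PWK/PhJ by 0.733. The SD over the strains of a group had a median of 0.394 on the log2 scale in the wild-derived and 0.333 in the classical strains, and was larger among the wild-derived strains in 60.4% of genes. The difference of the median SDs, 0.0604, was -0.026 without CAST/EiJ, -0.000405 without PWK/PhJ and -0.0282 without WSB/EiJ, but an SD over 2 strains has a lower median than one over 6 at the same spread. Each wild-derived pair, with mean absolute differences of 0.783, 0.740 and 0.749, lay above the highest classical pair. On the first principal component of strain means, with 24.9% of the variance, CAST/EiJ and PWK/PhJ lay at 84 and 74.8 and WSB/EiJ at -2, near the classical strains, which ran from -32.8 to -17.3. The second, with 22.0%, set CAST/EiJ and PWK/PhJ against each other at -73.8 and 80.9, and the third, with 13.8%, had WSB/EiJ at 67.5.

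Gene lists for liver functions and cell types were described by counts and medians, without a test, and members other than Gstt1 are named after their values were seen. Genes of cholesterol synthesis and uptake had the largest share of members, of the 23 lists, with all 3 wild-derived means on the same side of the classical mean. The pathway turns acetyl-CoA into cholesterol, is driven by the transcription factor SREBP2 and is switched off when cells hold enough sterol. Of 20 genes tested 0 were called (0.127% of all genes were), and 5 were lower at an unadjusted p under 0.05, beside 4.99% of all genes. In 19 of 20 the log2 difference was below 0, as in 7130 of all 14967 genes, with a median of -0.72 beside 0.02 over all genes tested. In 17 of 20 (85%) all 3 wild-derived means lay below the mean of the classical strains, which held for 15.7% of all genes. The strain medians were -1.68 in CAST/EiJ, -0.38 in PWK/PhJ and -0.62 in WSB/EiJ relative to the classical mean, and -0.64 to 0.38 in the classical strains. Over the other scalings and without single strains the median ran from -1.04 to -0.41. The classical strain 129S1/SvImJ was as low as WSB/EiJ.

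Idi1, which isomerises isopentenyl diphosphate, had 20.8, 23.3 and 20.6 CPM in CAST/EiJ, 22.9, 65.5 and 52.4 CPM in PWK/PhJ, and 116, 20.8 and 18.6 CPM in WSB/EiJ. Its classical libraries held 35.3 to 178 CPM (log2 difference -1.32 ± 0.35, SE, edgeR adjusted p 0.215). The libraries of the groups overlapped, and WSB/EiJ replicate 2 was the highest wild-derived library. As a mean over the list, this library lay 0.46 above the classical mean on the log2 scale, while the other WSB/EiJ libraries lay at -1.34 and -1.21 and the CAST/EiJ libraries between -1.88 and -1.61.

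**Figure D4:**
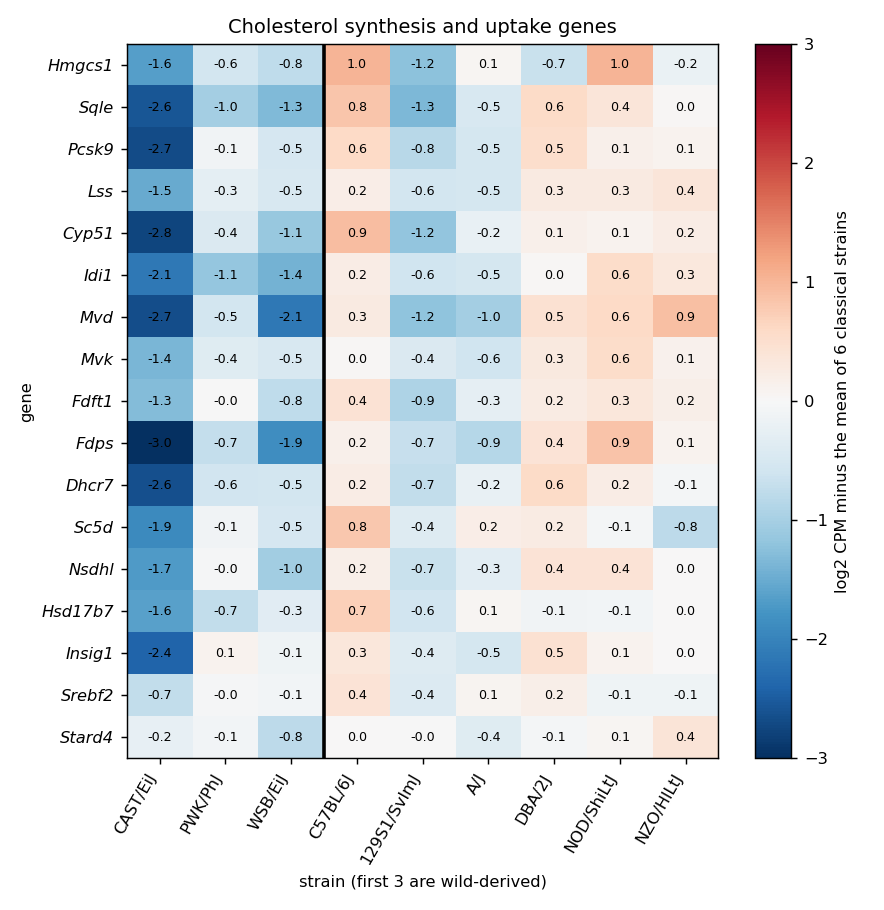
Log2 CPM of 17 of the 20 genes of cholesterol synthesis and uptake in each strain, relative to the mean of the 6 classical strains, with the wild-derived strains left of the black line. CAST/EiJ is blue in every row, with Fdps lowest at -3.02, and Insig1 in PWK/PhJ, at 0.11, is the highest wild-derived value shown.

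Interferon response genes, which had lower medians in CAST/EiJ and WSB/EiJ than in PWK/PhJ, are induced by type I interferon and restrict viruses. None of 21 was called, beside 0.127% of all genes. At an unadjusted p under 0.05, 7 were lower and 1 was higher, beside 4.99% and 5.51% of all genes, and 11 (52.4%) lay below the classical mean in all 3 strains, beside 15.7% of all genes. The median log2 difference was -1.14, and the strain medians were -2.10 in CAST/EiJ, -0.11 in PWK/PhJ and -1.01 in WSB/EiJ, with -1.22 to 1.02 in the classical strains. The 10 Kupffer cell markers, of the liver's macrophages, had strain medians in the same order, -0.83 in CAST/EiJ with 10 of 10 below the classical mean, 0.85 in PWK/PhJ and -0.16 in WSB/EiJ, with -0.92 to 1.24 in the classical strains, and their part in the interferon values was not tested. The PWK/PhJ value was high through replicate 1: as a mean over the markers this library lay at 1.45 relative to the classical mean and replicates 2 and 3 at -0.13 and 0.05, while the interferon genes lay at 0.26, 0.35 and -0.36 in the same libraries. Isg15, a ubiquitin-like effector, had 0.380 ± 0.0585, 1.49 ± 0.976 and 1.30 ± 0.301 CPM in the wild-derived strains and 1.73 to 12.1 CPM in the classical libraries (log2 difference -2.43, edgeR adjusted p 0.226). Wild-derived and classical libraries of Isg15 overlapped. The antiviral GTPase gene Mx2 had 30.3, 37.1 and 3.39 CPM against 0.0256 to 10.2 CPM (log2 difference 2.48, edgeR adjusted p 0.417). Among 14 immunity-related GTPases and guanylate-binding proteins tested, 0 were called and 3 were lower at an unadjusted p under 0.05, beside 0.127% and 4.99% of all genes, with a median of -1.06 that ran from -1.67 without PWK/PhJ to -0.64 without CAST/EiJ. The strain medians were -1.60 in CAST/EiJ, 0.10 in PWK/PhJ and -0.84 in WSB/EiJ, with -1.35 in 129S1/SvImJ, and 5 of 14 genes lay below the classical mean in all 3 wild-derived strains. The 14 antigen presentation genes had strain medians of -1.0 in CAST/EiJ, -0.44 in PWK/PhJ and 0.23 in WSB/EiJ, where 10 of 14 lay above the classical mean, and 3 of 14 lay below it in all 3 strains. Of these genes 2, H2-D1 and Psmb10, had all 3 wild-derived strain means below the 6 classical ones, beside 2.49% of all genes, but their libraries overlapped and neither was called (edgeR adjusted p 0.144 and 0.169). H2-D1 counts were not whole in any library.

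Immediate early genes respond within minutes to stress and growth signals. Their log2 differences were above 0 in 12 of 12 tested, beside 7837 of all 14967 genes, with a median of 0.49. Of these 12 genes 0 were called, beside 0.127% of all genes. In 7 (58.3%) all 3 strain means were above the classical mean, beside 14.4% of all genes. As a mean over the list the PWK/PhJ libraries lay at 1.26, 1.34 and -0.54, so that this strain held the highest and the lowest wild-derived values, and the WSB/EiJ libraries lay between 0.35 and 0.65. Libraries numbered 1 were high for these genes in several strains, and WSB/EiJ and DBA/2J have none with that number. Without the libraries numbered 1 the list difference was 0.65, and with them it was 0.53. Among 16 acute phase genes, plasma proteins made in inflammation, 3 (Saa1, Saa2 and Hp) had all 3 strain means in CPM above the 6 classical means, beside 1.78% of all genes, without a call. As a mean of log2 CPM, Saa1 in CAST/EiJ lay at -0.34 relative to the classical mean. Saa2 had 50.1 ± 77.3, 79.4 ± 92.3 and 126 ± 187 CPM in the wild-derived strains (n = 3 each, SD) and 2.38 to 23 CPM in the classical libraries (edgeR adjusted p 0.085). The spread within each wild-derived strain was larger than its mean, and each strain had a library at 13.1 CPM or lower.

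The remaining lists had medians nearer to that of all genes or depended on a single strain. Endothelial markers had log2 differences above 0 in 10 of 10 genes, beside 7837 of all 14967 genes. Their median was 0.54, but without PWK/PhJ the median was -0.13. Conjugation enzymes had 1 call in 35, Ugt3a2, beside 0.127% of all genes, and a median of -0.16. Medians were -0.26 over 31 drug-metabolising P450 genes, -0.05 over 22 genes of fatty acid oxidation, 0.11 over 16 bile acid genes, 0.07 over 17 lipogenesis genes, 0.24 over 14 gluconeogenesis genes, 0.29 over 18 clock genes and 0.02 over 14 genes of the growth hormone and IGF axis, with 0 calls in each. Chromatin regulators, 31 genes tested, had a median of -0.02, with strain medians within 0.1 of 0. Hepatocyte markers had a median of 0.09, Kupffer cell markers 0.09, stellate cell markers 0.37, lymphocyte markers -0.31, cholangiocyte markers -0.10 and erythroid markers -0.37. Each of these 6 medians changed sign under another scaling or without a single strain, with ranges of -0.15 to 0.22, -0.62 to 0.41, -0.10 to 0.70, -1.17 to 0.19, -0.24 to 0.14 and -1.05 to 0.96 in the same order. The medians of acute phase genes, lipogenesis, fatty acid oxidation, the growth hormone and IGF axis and chromatin regulators also changed sign.

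**Figure D5:**
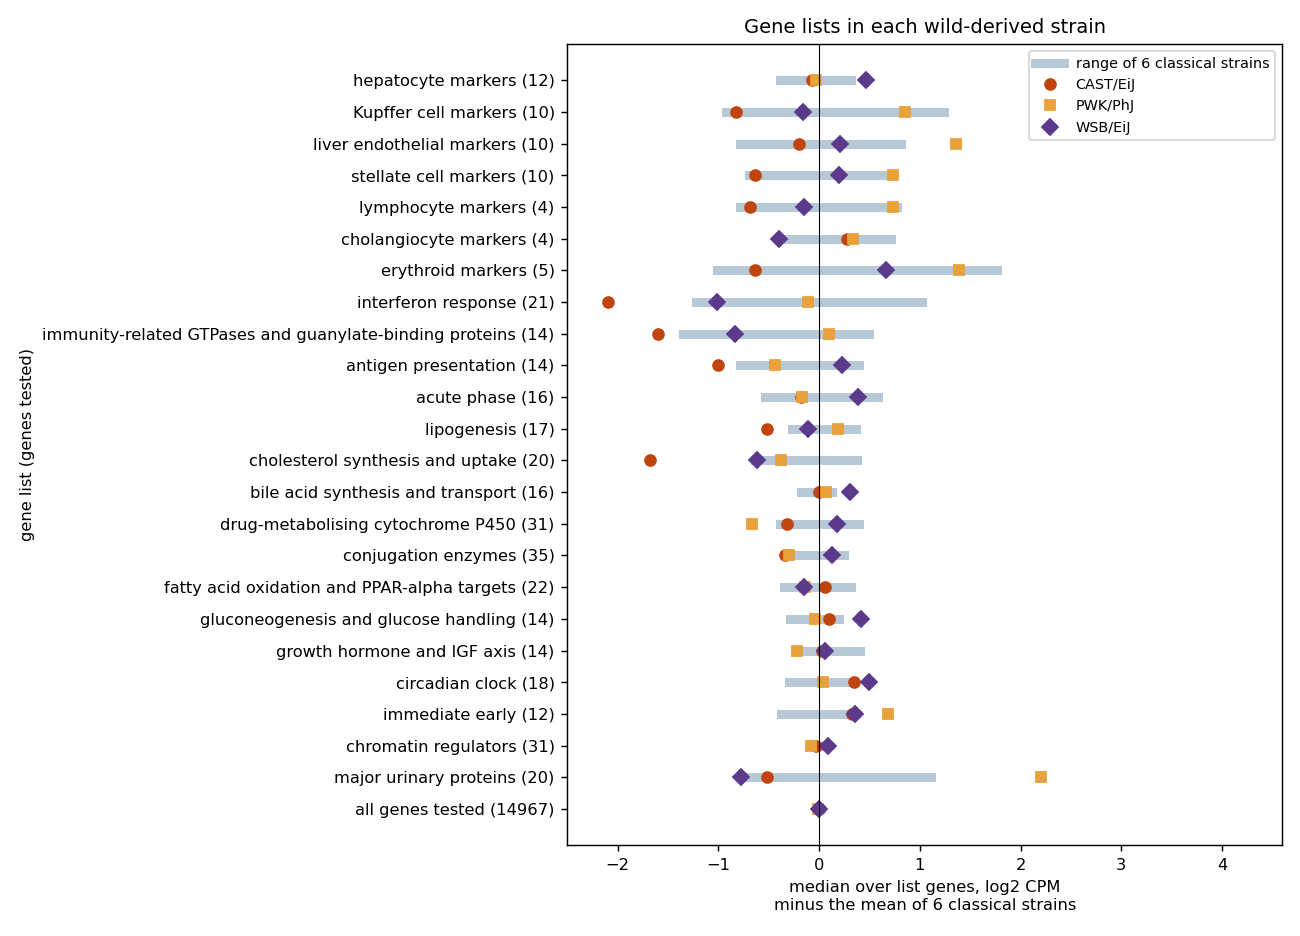
Median over the genes of each list of log2 CPM minus the mean of the 6 classical strains, with a marker for each wild-derived strain and a bar for the range of the 6 classical strains. CAST/EiJ lies left of the bar for cholesterol synthesis (-1.68) and interferon response (-2.10), and PWK/PhJ lies right of it for endothelial markers (1.36) and major urinary proteins (2.20).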

How the data were processed

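Expression was measured in 27 hepatocyte libraries from 9 strains, with poly(A) selection and a TruSeq kit per the labels' protocols. The authors deposited estimated counts (expected counts) per Ensembl gene, not scaled to depth. Per the submitters' processing notes the build was GRCm38 (mm10), and FastQC 0.11.5 and DESeq2 were used; the aligner and the counting program are not given in the sources used here. Of the values of all 43346 genes, 11.1% were not whole at a tolerance of 1e-06, which marks reads divided between genes. These genes include 18517 that were 0 in every library. Among the 14967 genes tested, 28.1% had counts that were not whole in 14 or more libraries. The protocol as named does not record strand. Counts were rounded, which changed library totals by at most 0.00026%, and summed over the 3 libraries of each strain.

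The 9 sums were fitted in R 4.3.3 with edgeR 4.0.16 (glmQLFit, glmQLFTest), TMM scaling and filterByExpr with the group as factor, which left 14967 of 43346 genes with 99.97% of counts and 7 residual degrees of freedom. P-values were adjusted by Benjamini and Hochberg and called under 0.05. A gene high in a single group can pass this filter through that group alone. CPM was computed per library. Log2 CPM used a prior count of 2. The fit was tested on simulated data. P-values measure the spread between these strains, and the spread between libraries of a strain may be technical. Symbols, types and coordinates came from GENCODE M21, which named 42462 IDs; promoters came from RefSeq (GRCm38.p6), which matched 3 of the 4 genes looked up.

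The rule for named genes took up to 12 genes in each direction among called protein-coding genes, with a proper symbol, at least 10 CPM in the higher group, separated strain means and whole counts in at least 14 libraries, ordered by fold change. Places not filled went to genes meeting all but the call with separated libraries. Genes near 0 in a group were named too. Some genes of the rule and the lists are counted but not reported by name here. The groups, 23 gene lists and rules were chosen with earlier results of these data known. Alternatives were DESeq2 1.42.0, limma 3.58.1, other size factors, filters and prior counts, removal of a GC trend, libraries as the unit with and without a replicate block, and leaving out each strain and library. Chosen after seeing these data were the pairwise measure of spread and the list medians by strain, by fit and without libraries numbered 1.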

Additional observations from a re-analysis of the deposited data

Results flagged for a closer look

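On the log2 CPM scale, Mmd2 in NOD/ShiLtJ stood apart among the 6 classical strain means. Its mean was 4.47 CPM, and the other classical strains ran from 16.1 to 34.1 CPM. The gap on the log2 scale was 0.638 of the whole range, above the 95% limit of Dixon's test for 6 values; the test was made on that scale for every named gene, and gaps in CPM differ from it. Chance gives such a gap in about 1 in 20 groups. The wild-derived means of Mmd2, 63.4 CPM and higher, were above all 6 classical strains whether or not NOD/ShiLtJ is counted.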

How the results depend on the processing

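With DESeq2 174 genes were called higher and 202 lower, and limma called 10 lower. With libraries as the unit the numbers were 2231 and 2455, and with replicate numbers as a block in that fit 1797 and 2003. By correlation of whole libraries, replicate numbers did not pair the samples. Same-numbered libraries of different strains had a mean correlation of deviations of 0.00899 (from -0.28 to 0.252 over 76 pairs). Of 27 libraries 8 correlated best with their own number. Such a mean does not cover subsets of genes: libraries numbered 1 were high for immediate early genes and low for clock genes in several strains. Leaving out each strain or library gave 3 to 102 genes called higher and 2 to 94 called lower. Libraries lay apart in 27 to 131 genes above and 39 to 190 below when a strain was left out, in 22 genes below at a minimum of 10 CPM, and strain means in 208 and 290. Genes near 0 in all wild-derived libraries numbered 0 to 4, and in all classical libraries 1 to 2, or 0 at a minimum of 5 CPM. The excess of the median SD in wild-derived strains (0.0604) turned to -0.026 without CAST/EiJ, -0.000405 without PWK/PhJ and -0.0282 without WSB/EiJ, where the SD is over 2 strains; the pairwise measure, free of that number, gave 0.216. For the named genes, 967 values under alternatives kept direction and call, 28 lost the call, 61 gained it and 0 reversed. Levels near that of 1 count, 0.0254 to 0.0517 CPM, cannot be ranked at this depth.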

Other observations

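Major urinary protein genes are a cluster of near-identical genes for pheromone carriers made by the liver. Of 20 tested 0 were called, beside 0.127% of all genes, and 5 were higher and 3 lower at an unadjusted p under 0.05, beside 5.51% and 4.99%. Mup10 had all wild-derived libraries below all classical ones, with 140, 546 and 106 CPM in CAST/EiJ, PWK/PhJ and WSB/EiJ against 1502 to 15640 CPM (edgeR adjusted p 0.101). Mup17 had 387, 5425 and 2781 CPM against 34.8 to 1123 CPM, and Mup12 had 2942, 3.14 and 855 CPM against 5.86 to 980 CPM. Counts of these genes were not whole in any library, so reads were divided within the family. The list median was 0.65 in edgeR, -0.05 in limma and -0.93 without PWK/PhJ.

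The enzyme genes that follow were not called. Cyp7b1, an oxysterol hydroxylase of bile acid synthesis, had 374 ± 92.0 CPM in CAST/EiJ and 863 ± 77.2 CPM in PWK/PhJ but 55.9 ± 6.45 CPM in WSB/EiJ (SD, n = 3 each), inside the classical range of 25.9 to 104 CPM (edgeR adjusted p 0.133). Cyp3a11, a major drug-metabolising P450, had 1483, 1032 and 2142 CPM against 2743 to 8175 CPM in the classical libraries (log2 difference -1.70, edgeR adjusted p 0.154), with counts that were not whole in any library. The sulfotransferase gene Sult2a1 had 654, 415 and 301 CPM against 6.56 to 243 CPM (log2 difference 2.22, edgeR adjusted p 0.226). For Cyp3a11 and for Sult2a1 these are strain means set against single classical libraries, and the libraries of the groups overlapped. All genes in these paragraphs were named after their values were seen.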
